A study of Mus musculus with 6 samples.

Results

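The metalloproteases of the ADAM, ADAMTS and MMP families and the TIMP proteins that inhibit them were followed in mouse sciatic nerve at postnatal day 14. Members were taken by gene symbol alone from the annotation of the array, as every probe whose symbol starts with Adam and a digit, with Adamts, or with Mmp and a digit, or is Timp1, Timp2, Timp3 or Timp4. The rule gave 154 probes of 78 genes, out of 45281 probes and 19057 named genes on the array. No measured value entered the choice. The comparison was between 3 arrays of nerves from mice labelled P0 Cre Dicer F or N, called mutants here, and 3 arrays of control littermates. Dicer cuts microRNA precursors to their mature form, and P0 is the main protein of peripheral myelin, whose promoter directs Cre recombinase to the Schwann cell lineage. Fibroblasts, vessels and immune cells of the nerve are not the aim of this Cre line and are part of every sample. What "F or N" stands for was not settled, so the Dicer alleles of a given mutant sample are unknown, and the littermates carry no further genotype in their labels. A phrase of the design text speaks of cultured cells, but title and samples name nerve. Both sexes stand on every sample, and nothing says if the RNA came from 1 mouse or several, so p-values cover only the spread among these samples, part of which may be technical.

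ADAM proteins are membrane proteins, several of which shed growth factors and receptors from the cell surface. ADAMTS enzymes are secreted and trim collagen precursors and large proteoglycans, and MMPs cut collagens, laminins and many signalling proteins. TIMP proteins block the active site of these enzymes. In peripheral nerve, ADAM17 is known for cutting neuregulin on the axon and so limiting myelination, the pair of the ligand Lgi4 and the receptor ADAM22 is needed for Schwann cells to myelinate, and MMP2 and MMP9 are known from nerve injury.

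The deposited normalized signals run from 7.96 to 15.91 and behave like log2 values, so that a difference of 1 is a 2-fold change if they are plain log2. The medians of the 6 arrays are all 8.24. The brightest 18420 probes, ranked by their mean across the 6 arrays, were tested, and the dimmest of them averaged 8.34, the brightness cutoff. Of the members, 56 probes of 40 genes were tested. The other 98 member probes read between 8.0 and 8.44 on every array, near the dim end of the scale, which leaves 38 genes without a tested probe. Over the 56 tested member probes the correlation between arrays was 0.994 to 0.995 among controls, 0.989 to 0.997 among mutants and 0.963 to 0.97 between groups, as a description across probes that share each array. Over all tested probes it was 0.992 to 0.995, 0.973 to 0.993 and 0.912 to 0.942. There mutant replicate 1 stood apart, at 0.982 and 0.973 with replicates 2 and 3, which correlated at 0.993. Sox10, which marks the Schwann lineage, read 13.98 ± 0.119 in mutants and 13.94 ± 0.0229 in controls (SD, n = 3 each), so the labelled nerve tissue held Schwann cell RNA in both groups, while S100b fell by 1.19. Erbb3, the other tested marker of the lineage, lay near the brightness cutoff, at 8.37 in mutants and 8.32 in controls, and was not called. Of the genes of myelinating Schwann cells, Egr2 fell by 2.45, and Mbp and Pmp22 fell as well. The brightest probes of Mbp and Pmp22 averaged 15.79 and 15.72 in controls, near the highest value on the arrays, and all but 1 of their dimmer tested probes fell by more than the brightest, so no size is given for them.

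Among the tested members, 17 of 40 genes were higher in mutants (42.5%) and 5 were lower (12.5%), each gene being read by its brightest tested probe and called at a limma adjusted p under 0.05. Over all 10273 genes tested the same way, 22.0% were higher and 17.6% lower. The median difference, mutant minus control, was 0.13 over the 40 genes and 0.01 over all genes. Counted by probe, 19 of 56 were higher and 6 lower, beside 19.9% and 15.9% of all tested probes. At a difference of 1 or more, 2 member probes were higher (Mmp14 and Adamts7) and 1 lower (Mmp24), beside 2.05% and 2.44% of all tested probes. The arrays of the groups did not overlap in 24 of the 40 genes (60.0%), beside 55.2% of all genes. In whole nerve, fewer cells of a type and less RNA per cell cannot be told apart. The counts move with single arrays. Without control replicate 2, 9 genes were called higher, and without mutant replicate 2 or control replicate 3, 11 were. Without mutant replicate 2 or 3, or control replicate 1 or 3, 3 genes were called lower. By probe, 10 were higher without control replicate 2 and 12 without control replicate 3, and 3 were lower without mutant replicate 2 or control replicate 3. The counts over all tested probes moved as well. From 3664 higher with all arrays, they came to 2557, 2590 and 2690 without control replicate 1, 2 or 3. Without mutant replicate 2 or 3 they came to 2891 and 3459. From 2932 lower with all arrays, they came to 2041, 2164, 2175, 2280 and 2825 in the same order.

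**Figure D1:**
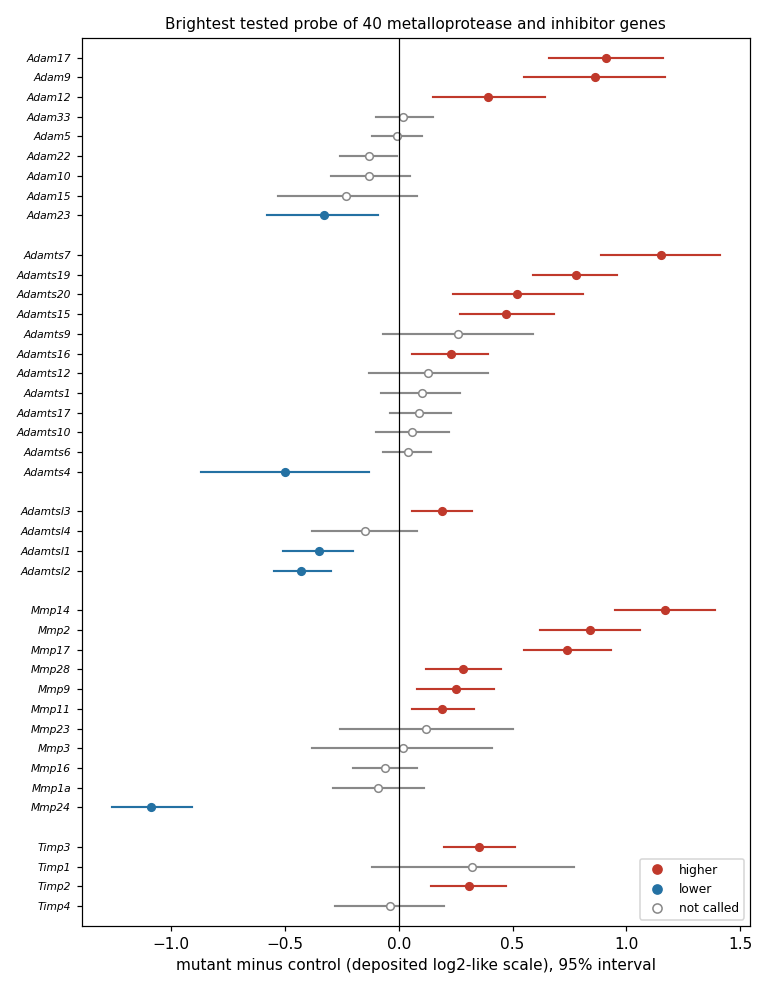
Difference between mutant and control nerves (mutant minus control on the deposited log2-like scale, horizontal axis) for the brightest tested probe of each of the 40 tested genes, grouped by family, with the 95% interval of the limma fit as a line. Red genes were called higher (17), blue genes lower (5), and open grey circles were not called (18). Mmp14 at 1.17 and Adamts7 at 1.15 lie farthest right and Mmp24 at -1.09 farthest left.

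By family, the counts of called genes were as follows, to be read beside 22.0% higher and 17.6% lower over all tested genes. Of 11 tested MMP genes, 6 rose and 1 fell, and of 12 tested ADAMTS proteases 5 rose and 1 fell. Of 9 tested ADAM genes, 3 rose and 1 fell. Of 4 TIMP genes, 2 rose and none fell, the other two being uncalled in the limma fit, at 0.32 and -0.04. The 4 ADAMTS-like genes, which encode secreted proteins without a protease domain, were split, with 1 higher and 2 lower. Whether the families differ from each other was not tested.

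The membrane-anchored MMPs held both the largest rise and the largest fall. Mmp14 encodes MT1-MMP, a collagenase of the cell surface that also activates the secreted gelatinase MMP2 from its precursor. Mmp14 read 14.71, 14.51 and 14.38 on mutant replicates 1, 2 and 3 and 13.33, 13.46 and 13.32 on the controls. All mutant arrays lay above all control arrays, with the highest value on mutant replicate 1. The difference was 1.17 (SE 0.093, limma adjusted p = 0.00018), a 2.25-fold change if the scale is plain log2. A second Mmp14 probe lay under the cutoff, at 8.20 ± 0.0284 in mutants and 8.21 ± 0.0593 in controls (SD, n = 3 each). Mmp17, which encodes a membrane MMP held by a lipid anchor, read 10.59, 10.50 and 10.68 in mutants and 9.77, 9.80 and 9.97 in controls. These groups did not overlap either, and the rise was 0.74 (SE 0.078, adjusted p = 0.000619 by limma).

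Mmp24 encodes MT5-MMP, a membrane protease best known from neurons, where it cuts N-cadherin. It read 9.49, 9.58 and 9.72 in mutants and 10.67, 10.75 and 10.62 in controls. Every mutant array lay below every control array, and the fall was by 1.09 (SE 0.074, limma adjusted p = 9.69e-05). A second, dimmer Mmp24 probe fell by 0.24 (SE 0.061, limma adjusted p = 0.0241), with a mutant mean of 8.26, under the brightness cutoff of 8.34, so that it was tested because of its control level. The mean of both probes fell by 0.66 (limma adjusted p = 0.000235). Mmp16, another membrane MMP, read 8.34 ± 0.0827 in mutants and 8.40 ± 0.0284 in controls (SD, n = 3 each) and was not called, with a 95% interval of the difference from -0.20 to 0.08. Mmp25 had no tested probe.

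**Figure D2:**
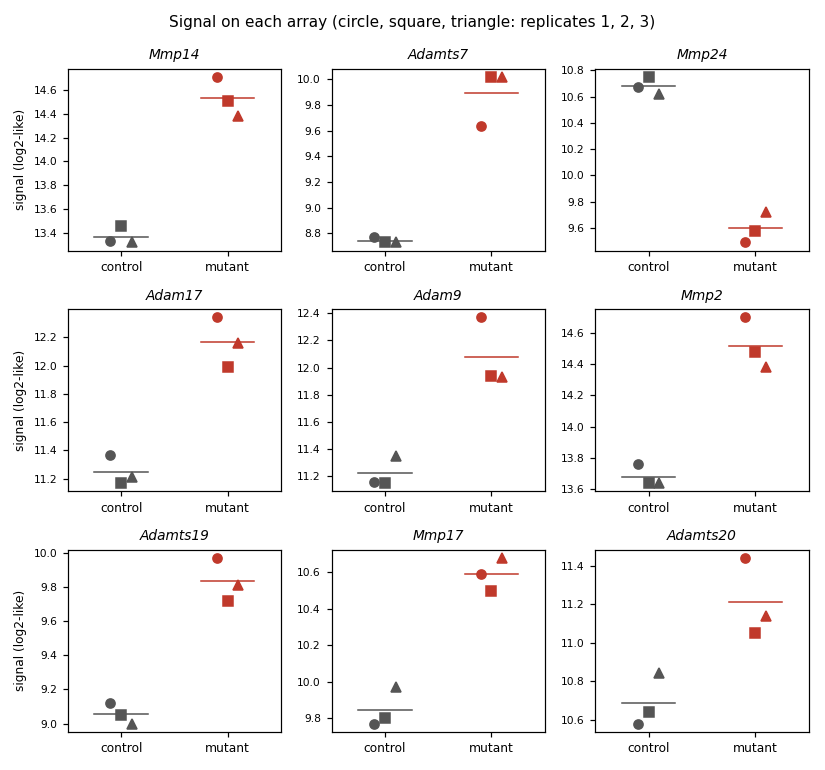
Signal on each of the 6 arrays (log2-like scale, vertical axes that differ by panel and do not start at 0) for the 9 member genes called with a difference of 0.5 or more before rounding (Adamts4 falls just short), in order of its size. Circles, squares and triangles are replicates 1, 2 and 3, and bars are group means. In each panel the 3 mutant arrays lie on 1 side of the 3 control arrays, and Mmp24 is the panel in which the mutants are lower.

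Promoter windows are shown for Mmp14 and Mmp24, the members that moved farthest in opposite directions, and for Adam17, Timp2 and Timp3, which rose. Each stretch is the 120 bases before the gene's start in RefSeq (build GRCm38.p6), 5′ to 3′ on the gene's strand. Capitals mark, for Mmp14 and Mmp24, the letters of the Egr motif GCGNGGGCG, and for the other genes those of the GC box GGGCGG or its reverse complement. Mmp14 lies at chr14:54431478-54431597 on the plus strand, Mmp24 at chr2:155775222-155775341 on the plus strand, Adam17 at chr12:21373633-21373752 on the minus strand, Timp2 at chr11:118355412-118355531 on the minus strand and Timp3 at chr10:86300292-86300411 on the plus strand.
Mmp14: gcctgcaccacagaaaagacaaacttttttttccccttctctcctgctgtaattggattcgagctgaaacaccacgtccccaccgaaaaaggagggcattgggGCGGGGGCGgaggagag
Mmp24: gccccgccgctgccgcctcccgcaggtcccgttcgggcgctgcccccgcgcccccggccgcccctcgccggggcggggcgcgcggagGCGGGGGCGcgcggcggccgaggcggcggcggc
Adam17: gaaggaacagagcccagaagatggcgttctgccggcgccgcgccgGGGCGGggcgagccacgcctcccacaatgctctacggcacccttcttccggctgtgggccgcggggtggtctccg
Timp2: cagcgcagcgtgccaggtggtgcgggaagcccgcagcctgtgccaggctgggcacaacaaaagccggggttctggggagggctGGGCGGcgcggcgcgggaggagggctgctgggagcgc
Timp3: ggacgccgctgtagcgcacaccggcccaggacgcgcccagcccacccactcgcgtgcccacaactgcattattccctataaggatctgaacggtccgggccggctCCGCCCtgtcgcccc

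In these letters the Egr motif starts 17 bases before the start of Mmp14, where it overlaps 2 GC boxes, and 33 bases before that of Mmp24, so the gene that rose and the gene that fell both carry it. The windows of 250 bases before the start were searched on both strands for 7 motifs. The motifs were chosen after the values were known, and the stretches shown after the matches were. RefSeq windows were at hand for 24 of the 40 tested genes and for 11 of the 22 called genes. The Egr motif was present in Adam23, Mmp11, Mmp14 and Mmp24 among the called genes, which moved in both directions, and in 4.7% of all 32851 windows. The GC box was present in 10 of the 11 called genes, in 16 of the 25 windows of the 24 tested members, and in 32.7% of all windows. The AP-1 motif TGANTCA (6.7% of all windows), the Tead motif CATTCC (12.6%) and the Sox motif ACAAAG (16.5%) were in none of the 11 called genes, the TATA box TATAAA (12.4%) was in Adamtsl2, and the E-box CAGCTG (13.0%) was in Adam17, Adamtsl2 and Timp2. A match of letters describes the window and shows neither binding nor a cause.

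Of the secreted collagenases and gelatinases, 3 of 6 genes on the array had a tested probe. Mmp2, the gelatinase that MT1-MMP activates, read 14.70, 14.48 and 14.38 in mutants and 13.76, 13.64 and 13.64 in controls. The groups did not overlap, and Mmp2 rose by 0.84 (SE 0.092, limma adjusted p = 0.000715). Its highest array was again mutant replicate 1. Of 8 markers of fibroblasts and perineurium, cells that also make Mmp2, Mmp14 and TIMP proteins, Lum and Col1a1 rose, by 0.99 and 0.61. The other markers of that list were not called, and among them Slc2a1 and Itgbl1 lay below 0, at -0.24 and -0.33. The part of these cells in the rise of Mmp2 and Mmp14 was not tested. Mmp9, the gelatinase of neutrophils and injured nerve, lay near the dim end, at 8.61, 8.74 and 8.64 in mutants and 8.51, 8.42 and 8.31 in controls, and was called at a difference of 0.25 (limma adjusted p = 0.0329). Blocking on the replicate number ended this call (adjusted p = 0.0538), as did testing all probes (0.0515) and leaving out mutant replicate 2 (0.101) or 3 (0.061) or control replicate 2 (0.0896) or 3 (0.0947). The 8 neutrophil markers on the array all lay under the brightness filter. Mmp1a was not called, at -0.09, with a 95% interval from -0.29 to 0.11, and Mmp8, Mmp13 and Mmp1b had no tested probe.

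Of the stromelysins and the remaining MMPs with a tested probe, 2 of 4 were called, both higher by under 0.3, beside 39.6% of all tested genes called. Mmp11, stromelysin-3, was called at 0.19 (SE 0.058, limma adjusted p = 0.0391), a call that ended under the replicate block (0.0781) and when any array but mutant replicate 1 was left out (adjusted p 0.0684 to 0.106). Mmp3, stromelysin-1, was read by 3 tested probes and none was called in the limma fit. The brightest Mmp3 probe read 9.36, 9.01 and 8.91 in mutants and 9.09, 9.33 and 8.80 in controls, so the groups overlapped, and the interval of its difference ran from -0.38 to 0.41. Mmp28, epilysin, an MMP known from studies of nerve repair, rose by 0.28, from 8.43 ± 0.0471 in controls to 8.71 ± 0.112 in mutants (limma adjusted p = 0.0207). That call was lost without mutant replicate 2 (0.0511) or control replicate 1 (0.08) or 2 (0.0678). Mmp23 read 9.98, 10.36 and 10.62 in mutants and 10.14, 10.32 and 10.14 in controls and was not called, but without mutant replicate 1 its difference was 0.29 (adjusted p = 0.0465 by limma). Mmp7, Mmp10, Mmp12, Mmp19, Mmp20 and Mmp21 had no tested probe.

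Of the 4 TIMP genes, 2 rose and the other two were not called. Timp2, which inhibits MMPs and also bridges MT1-MMP to the MMP2 precursor, read 13.36, 13.26 and 13.23 in mutants and 13.09, 12.94 and 12.91 in controls. The groups did not overlap, and the rise was 0.31 (SE 0.068, limma adjusted p = 0.0139). The Timp2 call was lost with a trended, robust variance estimate (0.061) and without control replicate 2 (0.056) or 3 (0.0524). Timp3, a matrix-bound inhibitor that also blocks ADAM17, read 13.65, 13.45 and 13.56 in mutants and 13.19, 13.18 and 13.24 in controls, without overlap, and rose by 0.35 (SE 0.065, limma adjusted p = 0.00659). Of the dimmer Timp3 probes, neither was called, at 0.34 (SE 0.155) and -0.01 (SE 0.087), so the gene's probes disagree. Read by the mean of its 3 tested probes, Timp3 was at 0.23 and no longer called (limma adjusted p = 0.0537).

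Timp1, the inhibitor best known from injury and inflammation, was not called by limma on either of its probes. The brighter read 9.16, 9.86 and 9.76 in mutants and 9.42, 9.27 and 9.11 in controls, and the other 9.19, 9.73 and 9.76 against 9.30, 9.38 and 9.05. On both probes mutant replicate 1 lay among the controls while the other two mutant arrays lay above all of them. The difference was 0.32 on each probe (95% interval of the brighter -0.12 to 0.77, adjusted p = 0.225). Without mutant replicate 1 it was 0.54 on the brighter probe (limma adjusted p = 0.00356), and with array weights 0.51 (0.00426). Timp4 read 8.43 ± 0.139 in mutants and 8.47 ± 0.147 in controls (SD, n = 3 each) and was not called, with an interval from -0.28 to 0.20.

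Changes of protease and inhibitor, or of different proteases, were then set against each other within each array, for 5 pairs chosen after their values were seen. The inhibitors in these pairs were Timp2 and Timp3. Reck, an inhibitor outside the symbol rule that rose by 1.23, was in none of them. The difference between Mmp14 and Timp2 was higher in mutants by 0.86 (SD over arrays 0.1 in mutants and 0.141 in controls), and that between Mmp2 and Timp2 by 0.54. The value for Mmp14 against Mmp2 was 0.32, and that for Adam17 against Timp3 was 0.56. In each of these pairs the mutant and control arrays did not overlap. The exact 2-sided permutation test over the 6 arrays gave p = 0.1 for each pair (0.1 after Benjamini-Hochberg adjustment over the 5), which is the smallest p that 3 against 3 arrays allow. Since the pairs were picked for their values and the test could not pass 0.05, these values are a description of the arrays. The signals are of different probes and say nothing of which transcript is more abundant.

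**Figure D3:**
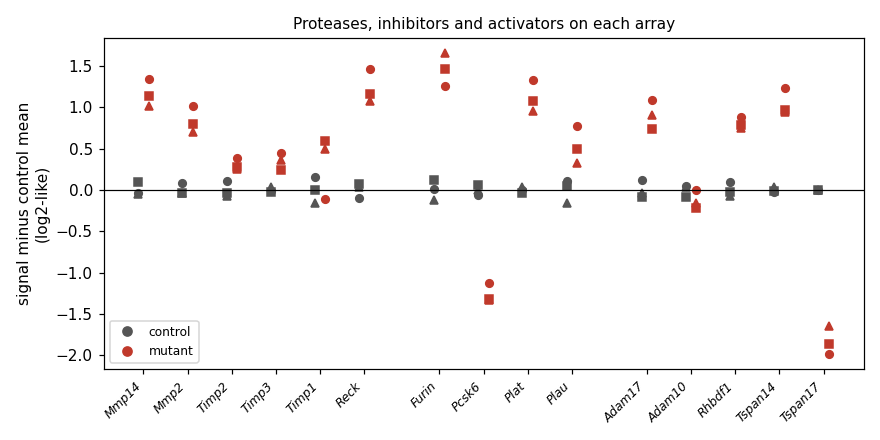
Signal on each array minus the mean of the 3 control arrays (log2-like scale) for Mmp14, Mmp2 and inhibitors, for activating proteases, and for ADAM17, ADAM10 and their partner proteins. Grey marks are control arrays and red marks mutant arrays, with circles, squares and triangles for replicates 1, 2 and 3. Reck (1.23) and Furin (1.45) rose with Mmp14 and Mmp2, Timp1 has 1 mutant array among the controls, and Pcsk6 and Tspan17 lie below 0 on all mutant arrays.

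Shedding ADAM proteases rose in 3 of 6 tested genes, and none of the 6 fell in the limma fit, the uncalled 3 lying between -0.23 and 0.02. Over all tested genes, 22.0% were higher and 17.6% lower. Adam17, which sheds tumour necrosis factor, neuregulin and the neurotrophin receptor Ngfr, read 12.34, 11.99 and 12.16 in mutants and 11.37, 11.17 and 11.21 in controls. All mutant arrays were above all control arrays, and the rise was 0.91 (SE 0.103, limma adjusted p = 0.000852). A dimmer Adam17 probe rose by 0.24 (SE 0.058, limma adjusted p = 0.0182), also without overlap, and the mean of both probes was higher by 0.58 (0.00152). Adam9, a widely expressed sheddase, read 12.37, 11.94 and 11.93 in mutants and 11.16, 11.15 and 11.35 in controls. These groups did not overlap, with mutant replicate 1 the highest, and Adam9 rose by 0.86 (SE 0.131, limma adjusted p = 0.00297).

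Adam12, known from muscle and connective tissue, read 9.07, 9.04 and 8.70 in mutants and 8.57, 8.51 and 8.56 in controls, without overlap, and rose by 0.39 (limma adjusted p = 0.0258). The Adam12 call was lost with all probes tested (0.062) and without mutant replicate 2 (0.0836) or control replicate 1 (0.074), 2 (0.0851) or 3 (0.075). Adam10, the sheddase that starts Notch cleavage, read on its brighter probe 9.19, 8.98 and 9.03 in mutants and 9.24, 9.11 and 9.23 in controls, with overlap. It was not called (difference -0.13, 95% interval -0.30 to 0.05), nor was its dimmer probe at -0.19. Without mutant replicate 1 the brighter probe was called lower, at -0.19 (limma adjusted p = 0.0476), and with array weights at -0.20 (0.0108). Within arrays, Adam17 minus Adam10, a pair chosen after its values were seen, was higher in mutants by 1.04. The exact permutation p was 0.1, the smallest possible, so this value too is a description of the arrays. Adam15 read 9.83 ± 0.228 in mutants and 10.05 ± 0.141 in controls, and Adam33 8.55 ± 0.0208 and 8.53 ± 0.0584 (SD, n = 3 each), and neither was called. Adam8 and Adam28 had no tested probe.

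ADAM11, ADAM22 and ADAM23 lack protease activity and serve as receptors of LGI proteins. Adam23 read 11.16, 11.17 and 10.85 in mutants and 11.40, 11.29 and 11.49 in controls, without overlap, and was called lower, at -0.33 (SE 0.103, limma adjusted p = 0.0447). This call was lost with the replicate block (0.0807), with all probes tested (0.0998), with the trended, robust variance estimate (0.053), and without any of 5 single arrays, namely mutant replicate 2 (0.0551) or 3 (0.0648) or control replicate 1 (0.12), 2 (0.0669) or 3 (0.137). Adam11 had no tested probe. Adam22 was read by 1 tested probe near the dim end, at 8.27, 8.27 and 8.34 in mutants and 8.44, 8.47 and 8.37 in controls, and was not called (difference -0.13, limma adjusted p = 0.0964). It was called lower with the trended, robust variance estimate (0.0268) and with array weights, at -0.16 (0.0139). Its mutant mean of 8.29 lay under the brightness cutoff, so it was tested because of its control level. Of the LGI ligands outside the symbol rule, Lgi4 and Lgi1 rose, by 0.87 and 1.20, and Lgi2 and Lgi3 were not called, at -0.04 and -0.12. Dimmer probes rose by less, at 0.24 for Lgi4 and at 0.42 and 0.97 for Lgi1. Lgi4, the Schwann cell ligand of ADAM22, read 11.44, 11.53 and 11.78 in mutants and 10.70, 10.61 and 10.84 in controls (limma adjusted p = 0.00108).

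Of the ADAMTS proteases, Adamts7 moved most. Adamts7, which cuts a cartilage matrix protein and is known from vessel walls, read 9.64, 10.02 and 10.02 in mutants and 8.77, 8.73 and 8.73 in controls. The groups were far apart, with mutant replicate 1 the lowest mutant array, and the rise was 1.15 (SE 0.108, limma adjusted p = 0.000361). Adamts19 read 9.97, 9.72 and 9.81 in mutants and 9.12, 9.05 and 9.0 in controls, without overlap, and rose by 0.78 (SE 0.076, limma adjusted p = 0.000445). Adamts16 was called at 0.23 (limma adjusted p = 0.0419), with a control mean just under the cutoff, and this call was lost with all probes tested (0.0626) and without mutant replicate 1 (0.0666) or 2 (0.111) or control replicate 2 (0.133) or 3 (0.123). Adamts12, at 11.37 ± 0.212 in mutants and 11.24 ± 0.0688 in controls (SD, n = 3 each), was not called, with an interval from -0.13 to 0.39. Adamts6, Adamts10 and Adamts17 were not called either, at 0.04, 0.06 and 0.09, and Adamts13 and Adamts18 had no tested probe.

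The proteoglycan-cleaving ADAMTS enzymes act on versican and aggrecan and were split. Adamts20, known from pigment cell survival in mice, read 11.44, 11.05 and 11.14 in mutants and 10.58, 10.64 and 10.84 in controls and rose by 0.52 (SE 0.12, limma adjusted p = 0.0155). Its second probe rose by 0.42 (SE 0.082, limma adjusted p = 0.00784), and neither probe's groups overlapped. The call of the first was lost without control replicate 1 (0.0624) or 2 (0.0594). Adamts15 read 9.49, 9.35 and 9.49 in mutants and 8.82, 8.99 and 9.10 in controls, without overlap, and rose by 0.47 (SE 0.085, limma adjusted p = 0.0057). Adamts4, an aggrecanase, went the other way, with 9.66, 9.63 and 9.46 in mutants and 10.42, 9.81 and 10.01 in controls. It was called lower, at -0.50, just under 0.5 in size before rounding (SE 0.155, limma adjusted p = 0.046), with the highest control, replicate 1, standing above the other controls. The Adamts4 call was lost with all probes tested (0.119) and without mutant replicate 2 (0.0945) or 3 (0.112) or control replicate 1 (0.0657) or 3 (0.0952). Adamts1 and Adamts9 were not called, at 0.10 and 0.26, and of their substrates Vcan was called at 0.40 (limma adjusted p = 0.0393), a call lost with all probes tested (0.0957) and when any array but mutant replicate 3 was left out (adjusted p 0.0519 to 0.125). Of the procollagen proteases, Adamts3 and Adamts14 had no tested probe.

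The ADAMTS-like proteins bind matrix fibres and have no protease domain. Adamtsl2, which binds fibrillin microfibrils, read 8.19, 8.18 and 8.23 in mutants and 8.63, 8.57 and 8.69 in controls, without overlap, and fell by 0.43 (SE 0.053, limma adjusted p = 0.00122). Its mutant mean lay under the brightness cutoff, so it was tested because of its control level. Adamtsl1 read 8.43, 8.47 and 8.57 in mutants and 8.90, 8.76 and 8.88 in controls, without overlap, and fell by 0.35 (limma adjusted p = 0.00615). Adamtsl3 was called at 0.19 (adjusted p = 0.0351 by limma), a call lost with the replicate block (0.0667), with a stricter brightness filter (0.0606), with cyclic loess (0.061), with the trended, robust variance estimate (0.0687), and when any array but mutant replicate 1 was left out (adjusted p 0.0521 to 0.122). Adamtsl4 was not called, at -0.15, with an interval from -0.38 to 0.08, but was called lower with array weights, at -0.25 (limma adjusted p = 0.0249).

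**Figure D4:**
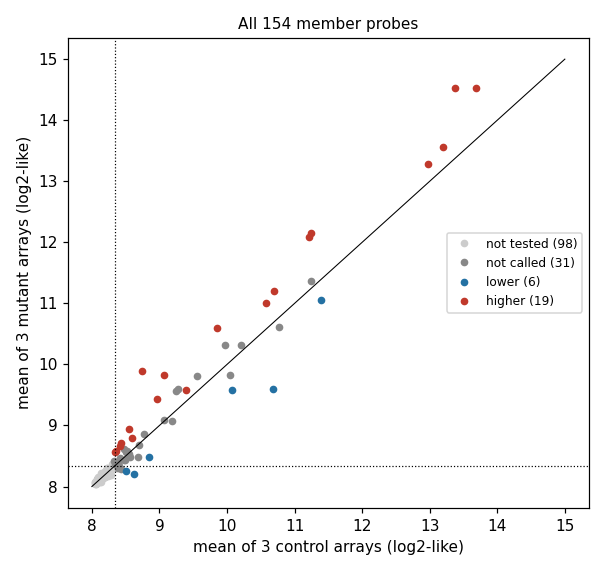
Mean of the 3 mutant arrays against the mean of the 3 control arrays (log2-like scale) for all 154 member probes, with the diagonal of equal signal and dotted lines at the brightness cutoff of 8.34. The 98 untested probes crowd the lower left corner, and the 19 probes called higher and 6 called lower lie off the diagonal, with Mmp14, Mmp2, Timp3 and Timp2 the brightest of those called.

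Of the 38 untested genes, 20 belong to the ADAM genes known mostly from testis, and many sit beside each other on a chromosome. All 78 symbols matched the RefSeq gene table of GRCm38.p6. On chromosome 9, 9 MMP genes (Mmp13, Mmp12, Mmp1b, Mmp3, Mmp1a, Mmp10, Mmp8, Mmp20 and Mmp7) follow each other in gene order with at most 2 other protein-coding genes between neighbours. Of these 9, Mmp3 and Mmp1a had a tested probe, and neither was called. On chromosome 8, Adam9 stands beside Adam32, Adam5, Adam3 and Adam18, the last 3 known from testis, and of these 5 genes Adam9 rose, Adam5 was tested and not called at -0.01, and 3 had no tested probe. A further 8 ADAM genes of the same chromosome form 2 runs of 4 without a tested probe. Near-identical copies among them, such as Adam26a and Adam26b, could share a probe. With all probes tested, 1 of the 98 dim member probes was called. It reads Adamts8, which was named after its value was seen, and was higher by 0.08 (limma adjusted p = 0.0472). How many of all the probes outside the filter were called was not counted, so 1 of 98 cannot be set against a usual share.

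Genes outside the symbol rule that control these enzymes were read in the same fit. Of 50 listed genes on the array, 31 were tested, of which 13 rose and 5 fell, with a median difference of 0.11, beside 22.0% higher, 17.6% lower and a median of 0.01 over all genes, and without control replicate 2 or 3 the number lower was 3. Among other inhibitors, Reck, a membrane-anchored inhibitor of MMP2, MMP9 and MT1-MMP, read 11.78, 11.47 and 11.39 in mutants and 10.21, 10.38 and 10.35 in controls. These groups did not overlap, and Reck rose by 1.23 (SE 0.111, limma adjusted p = 0.000302). A dimmer Reck probe rose by less, at 0.87. Spock2 was called lower at -0.27 (adjusted p = 0.0332 by limma), a call lost with the replicate block (0.0683), with all probes tested (0.0588), with array weights (0.0555) and when any array but mutant replicate 2 was left out (adjusted p 0.0502 to 0.112). The clearance receptor gene Lrp1 was not called, at -0.14.

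Proteases that activate MMPs and ADAMs moved in both directions. Furin is the convertase that removes the prodomain of MT1-MMP and of ADAM17. Furin read 12.30, 12.51 and 12.70 in mutants and 11.05, 11.16 and 10.92 in controls, without overlap. The rise was 1.45 (SE 0.113, limma adjusted p = 0.000167), and a dimmer Furin probe rose by less, at 0.57. Pcsk6, another convertase, fell by 1.26 (SE 0.073, limma adjusted p = 5.14e-05), from 10.61, 10.74 and 10.68 in controls to 9.55, 9.36 and 9.35. The plasminogen activators Plat and Plau rose, by 1.12 and 0.53, and the Plau call was lost without control replicate 2 (0.0511) or 3 (0.0631). Of 7 tested genes in this list 4 rose and 1 fell, beside 22.0% higher and 17.6% lower over all tested genes.

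Of 6 tested partners of ADAM10 and ADAM17, 2 rose and 2 fell, beside 22.0% higher and 17.6% lower over all tested genes. Rhbdf1, an iRhom that carries ADAM17 to the cell surface, read 13.64, 13.55 and 13.51 in mutants and 12.85, 12.74 and 12.69 in controls and rose by 0.81 (SE 0.065, limma adjusted p = 0.000194). The ADAM17 partners Rhbdf2 and Frmd8 were not called, at 0.03 and -0.13. The tetraspanins that bind ADAM10 diverged. Tspan14 rose by 1.05, while Tspan17 fell by 1.83 (SE 0.088, limma adjusted p = 2.27e-05), from 14.32 on all 3 controls to 12.34, 12.46 and 12.68. Tspan15 was called lower, at -0.47, a call lost without control replicate 2 (0.0633) or 3 (0.0632). Among other zinc metalloproteases and their enhancers, Mme, the neutral endopeptidase, fell by 2.15 (SE 0.128, limma adjusted p = 5.53e-05). The dimmer tested probes of Mme also fell, each by less. Ece1 and Pcolce rose by 0.73 and 0.46, and Bmp1 was not called, at 0.13. The dimmer Ece1 probe was not called, at 0.24, so the probes of Ece1 disagree. The shed receptor Ngfr, a substrate of ADAM17, rose by 3.42 (SE 0.082, limma adjusted p = 3.95e-06).

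Markers of other cell types were read beside these values, and over all tested genes 22.0% were higher and 17.6% lower. Of the 8 fibroblast and perineurial markers, 2 rose and 0 fell, and the mean of the 8 per array was 13.37 to 13.69 in mutants and 13.06 to 13.32 in controls. The genes of that list uncalled on their brightest probe were Col1a2 at 0.46, Col3a1 at 0.33, Pdgfra at 0.27, Dcn at 0.14, Slc2a1 at -0.24 and Itgbl1 at -0.33. A dimmer Dcn probe was called higher, at 0.38. Of 5 tested mast cell markers 4 rose (array means 9.67 to 10.08 in mutants and 9.13 to 9.24 in controls), and all 5 tested proliferation markers rose (10.46 to 10.53 and 8.91 to 8.94). Of 6 tested macrophage markers 1 rose and 1 fell (10.20 to 10.22 and 10.07 to 10.22). Of 5 tested pericyte and smooth muscle markers, Pdgfrb rose by 0.36. The others were not called, with Rgs5 at -0.37, Myh11 at -0.17, Tagln at -0.09 and Acta2 at 0.01. Of 5 tested endothelial markers Cldn5 fell by 0.88 and the others were not called. Of 3 tested adipocyte markers none was called, with Adipoq at -0.50, Lep at -0.34 and Cidec at -0.31. The 6 skeletal muscle markers varied between arrays (9.86 to 11.81 in mutants and 11.73 to 12.89 in controls), and 1 of them, Mb, was called lower. Their part in the changes of the metalloproteases was not tested.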

How the data were processed

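RNA of 6 sciatic nerve samples was hybridised to Illumina Mouse WG-6 version 2 arrays. Per the labels (the design text of the series), the authors used RMA normalization and limma. The submitters' processing notes name lumi 1.8.3. Values were deposited in a unit that behaves like log2. Whether lumi's variance-stabilising transform was applied instead of plain log2 is not known, nor is the method of background correction, both being not given in the sources used here. Sorted, the 6 columns differ by 0.000254 or less.

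The design text filters by present calls and keeps 18420 probes, and those calls were not used here. Instead, probes were ranked by their mean across the 6 arrays, whatever the group, and the first 18420 kept, and 26861 were left out. Of all probes, 34885 carry 1 gene symbol in the supplied annotation, 18 several and 10378 none. The last 2 kinds were tested but not named. Mutant and control were compared across all kept probes in R 4.3.3 by the 2-sided moderated test of limma 3.58.1 (lmFit, eBayes; 4 residual and 2.63 prior degrees of freedom), with Benjamini-Hochberg adjustment over all of them, and called at an adjusted p under 0.05. A gene is read by its brightest kept probe. Intervals of 95% are from the same fit and not adjusted. The number of arrays limits the precision.

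Named are all members called with a difference of 0.5 or more, every TIMP, every member of a role with at most 6 measured genes, and up to 4 called genes of each list outside the rule. The members and lists were chosen with earlier results of these data known. The titles number replicates 1 to 3 in both groups. Deviations from the group means correlated at 0.17, 0.15 and 0.22 for equal numbers and at -0.16 to 0.03 for unequal ones. Within a group the deviations cancel out, so these values depend on each other and are a weak sign of pairing. No stated design pairs the arrays. The main calls are from the fit without pairs, and a fit with the number as a block was an alternative. Other alternatives were no filter, a stricter filter of 12000 probes, cyclic loess, median centring, a trended robust variance estimate, array weights, reading a gene by the mean of its tested probes or by the probe with the largest moderated t, and leaving out each array.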

Additional observations from a re-analysis of the deposited data

How the results depend on the processing

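Of the 22 called member genes, 12 kept direction and call under all alternatives that tested their brightest probe (Mmp14, Adamts7, Mmp24, Adam17, Adam9, Mmp2, Adamts19, Mmp17, Adamts15, Adamtsl2, Timp3 and Adamtsl1, Adamtsl1 and Adamtsl2 not being tested under the stricter filter), and 10 lost the call under at least 1. These alternatives leave out the reading of a gene by other probes. The stricter filter, which tests fewer probes, called 12 member probes higher and 3 lower (11 and 3 genes). Of all probes it called 2844 higher and 2276 lower, beside 3664 and 2932 in the main fit. The number of member probes it tested was not counted, so lost calls and fewer tests are not separated here. Testing all probes called 3 genes lower, with 3601 of all probes called higher and 2785 lower. Array weights called 4483 of all probes lower, and 11 probes and 8 genes of the members lower. The cause was not tested. In fits without 1 array, member probes called higher ran from 10 to 21 and lower from 3 to 8, member genes from 9 to 18 and from 3 to 6, and related genes called lower from 3 to 5. Without mutant replicate 1, 4044 of all probes were called higher and 3458 lower. With the replicate block, 14 member genes were called higher and 4 lower, and beyond the calls named above no other member call changed. Read by the mean of their tested probes, 16 member genes were called higher and 5 lower, Timp3 being the 1 lost (0.23, limma adjusted p = 0.0537), and the uncalled Adamts10 was at -0.01. Some uncalled genes turned sign. Without 1 array, Mmp23 ran from -0.03 to 0.292, Mmp3 from -0.119 to 0.143, Adam33 from -0.007 to 0.051, Timp4 from -0.121 to 0.042 and Adam5 from -0.022 to 0.0025, and array weights gave -0.092 for Mmp3 and 0.083 for Timp4. Signal near the dim end limits the 98 untested probes and the sizes for Adamtsl2, Adam22 and the dimmer Mmp24 probe.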
